A study of Mus musculus with 32 samples.

Results

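Dendritic cell transcripts were followed through 10 genes picked by name as markers of these cells and of their states, out of 54446 genes in the count tables: Xcr1, Clec9a, Batf3, Irf8, Zbtb46, Flt3, Ccr7, Fscn1, Cd209a and Siglech. The choice was by gene name, with earlier results of these data known. The 32 libraries were bulk RNA-seq of liver tumours grown in BALB/c mice from BNL-MEA, a single mouse liver cancer line implanted in the liver, so each library mixed cancer cells, infiltrating host cells and a variable amount of liver tissue. Treatments were given in 3 experiments, which the labels call batches, and each was compared with the vehicle of its own experiment. In the dose experiment, mice received vehicle (n = 4), a low dose of the multikinase inhibitor regorafenib (5 mg/kg/day, n = 3) or a high dose of it (20 mg/kg/day, n = 3). In the DC-101 experiment, they received vehicle (n = 4), low dose regorafenib (n = 3) or DC-101, an antibody against mouse VEGFR2, at 800 ug on days 1, 3 and 5 (n = 3). In the anti-PD1 experiment, they received vehicle, low dose regorafenib, anti-PD1, an antibody against the inhibitory T cell receptor PD1, or low dose regorafenib with anti-PD1 (the combination), with n = 3 in each group.

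Dendritic cells take up antigen in tissues and present it to T cells. Conventional type 1 cells (cDC1) depend on the transcription factors Irf8 and Batf3, carry the surface receptors Xcr1 and Clec9a and are known for presenting tumour antigens to CD8+ T cells. Conventional type 2 cells (cDC2) and related monocyte-derived cells can carry Cd209a, plasmacytoid cells carry Siglech, and a maturing dendritic cell turns on Ccr7 to follow chemokines to lymph nodes and Fscn1 to reshape its actin skeleton.

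Total counts ranged from 16.8 M to 27.7 M per library, which left the rarer dendritic cell genes near the counting limit. The summed level of 20 hepatocyte genes ran from 26.7 to 132000 CPM (read counts scaled to library size with TMM factors) over the libraries. High dose replicate 1 stood apart, with the highest hepatocyte sum and a TMM factor of 0.678. In bulk tumour RNA, a lower value of a marker can come from fewer cells of that type or from less of the transcript in each cell, and these cannot be told apart. Libraries of a group differed beyond counting noise (chi-square per degree of freedom from 12.9 to 834 over 36 pairs), and the labels give no animal numbers, so p-values measure the spread between these samples.

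The 10 genes split into 3 that were counted well and 7 that were weak. Per kilobase of exon, the median level in the 11 vehicle libraries was 86.3 CPM for Fscn1, 7.91 for Irf8, 1.19 for Batf3 and 0.9 for Zbtb46. Below them, the medians were 0.301 CPM per kilobase for Ccr7, 0.166 for Cd209a, 0.156 for Flt3, 0.143 for Clec9a, 0.106 for Xcr1 and 0.0973 for Siglech. The lowest vehicle library of Fscn1 (38.6) lay above the highest of Irf8 (11.4), and the lowest of Irf8 (4.63) lay above the highest of Batf3 (1.86). From Batf3 downwards, neighbouring genes in this order overlapped in their range over the vehicle libraries. Fscn1 was thus the only member at a level far above the others. The raw counts of Fscn1 ran from 988 to 9827 over the 32 libraries, those of Irf8 from 446 to 2931 and those of Zbtb46 from 71 to 295. The weak genes fell under 10 counts in 15 libraries for Cd209a, 12 for Siglech, 11 for Clec9a, 9 for Xcr1, 4 for Ccr7, 3 for Batf3 and 0 for Flt3. At these depths, a fold change of a weak gene rests on a few reads in the low libraries. All 10 genes passed the filter on low counts in each experiment, but Cd209a and Siglech passed in the DC-101 experiment through 3 of 10 libraries, none of them vehicle, and Xcr1 and Clec9a in the anti-PD1 experiment through 7 of 12, none of them anti-PD1. Clec9a overlaps Clec1b and Irf8 overlaps Gm20388 on the same strand, and Flt3 overlaps an antisense gene, so their counts are uncertain where reads were shared.

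**Figure D1:**
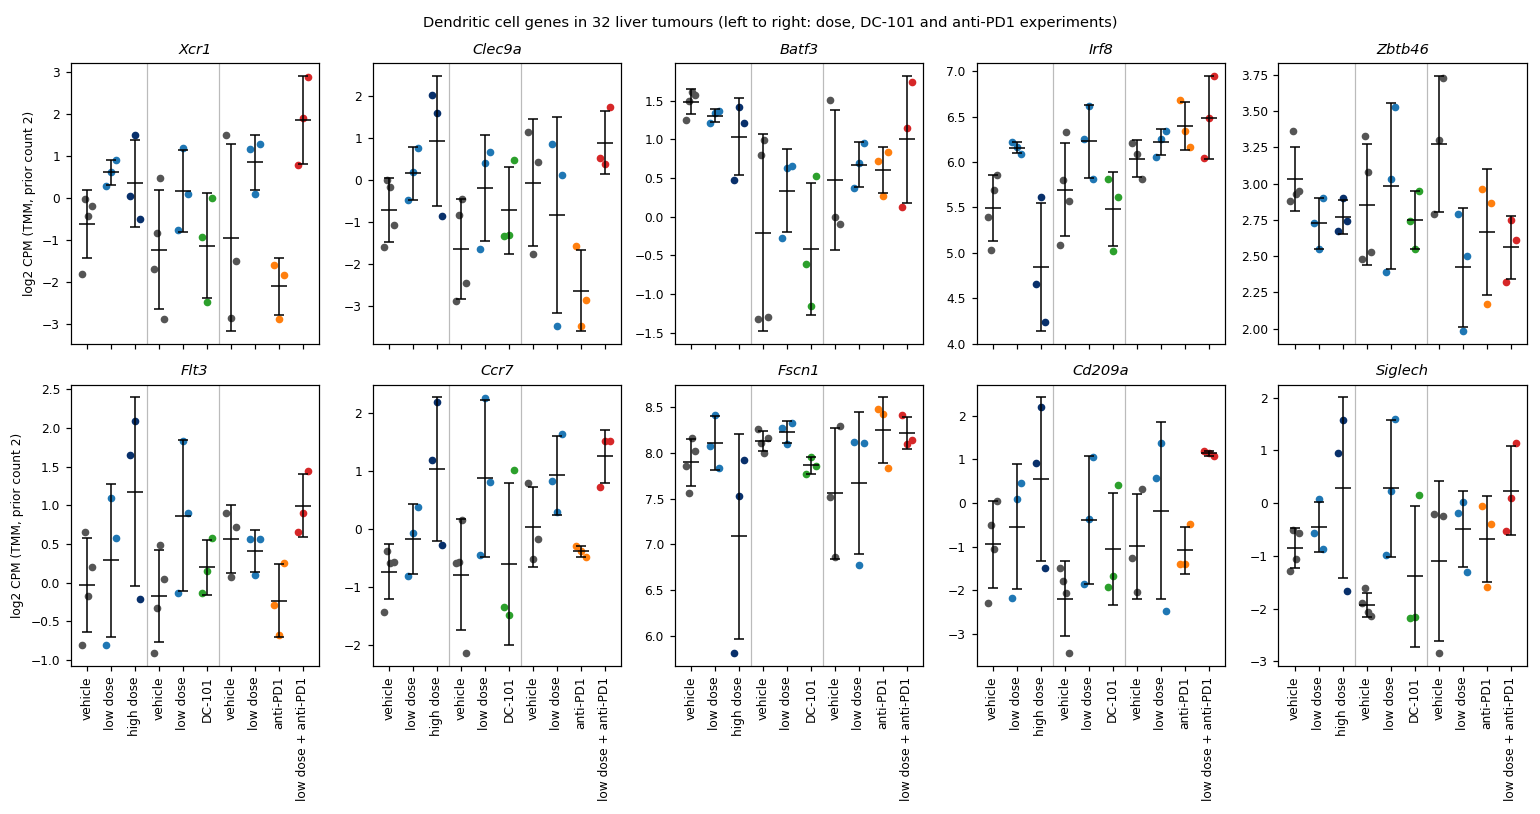
Log2 CPM (TMM-scaled, prior count 2) of each gene on the y axis, with its own range in each panel, for the 10 groups on the x axis. Points are libraries, and bars are the group mean with the SD. The SD within a group reached 2.32 for Clec9a and 2.22 for Xcr1, and 1.12 for Fscn1.

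The chemokine receptor Xcr1 (chromosome 9, 123852315 to 123862029, minus strand, GRCm38) and the receptor for dead cells Clec9a (chromosome 6, 129408862 to 129424763, plus strand) are the 2 cDC1 surface markers of the set, and they moved together over the libraries (Pearson's r = 0.75). Their promoters are shown because both held the same short pattern, TTTC and TGA with 4 bases between them, on either strand. It is part of a composite site for AP-1 and IRF proteins such as Batf3 and Irf8, as TGA is only the start of the AP-1 site TGANTCA. Neither of the 2 promoters held TGANTCA, so neither held the full composite site. The windows run from 250 bases before to 50 bases after the start of the gene (RefSeq, GRCm38.p6), chr6:129408612-129408911 on the plus strand for Clec9a and chr9:123861980-123862279 on the minus strand for Xcr1. They are printed from 5′ to 3′ along the gene with the match in capitals.
Clec9a: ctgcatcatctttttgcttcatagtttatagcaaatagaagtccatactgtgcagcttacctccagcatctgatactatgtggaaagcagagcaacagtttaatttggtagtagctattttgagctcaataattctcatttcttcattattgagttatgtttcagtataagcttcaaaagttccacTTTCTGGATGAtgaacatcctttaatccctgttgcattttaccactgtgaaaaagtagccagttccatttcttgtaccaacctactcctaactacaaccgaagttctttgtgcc
Xcr1: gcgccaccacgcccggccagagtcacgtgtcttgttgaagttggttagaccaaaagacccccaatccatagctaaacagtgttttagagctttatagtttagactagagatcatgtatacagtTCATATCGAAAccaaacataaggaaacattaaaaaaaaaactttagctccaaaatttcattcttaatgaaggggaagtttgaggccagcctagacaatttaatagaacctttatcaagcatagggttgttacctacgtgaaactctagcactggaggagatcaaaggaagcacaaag
In Clec9a the match lay on the strand of the gene and began 64 bases before its start, and in Xcr1 it lay on the opposite strand and began 127 bases before. Of the 9 members with a promoter entry, 2 held the pattern, and 4.56% of the 32851 mouse promoters in the table did. Another 8 patterns were searched on both strands. The Ets and IRF composite GGAANNGAAA was in 1 member (Cd209a; 2.72% of all promoters), the interferon response pattern GAAANNGAAA in 0 (3.44%) and the AP-1 site TGANTCA in 1 (Zbtb46; 7.81%). The PU.1 letters GAGGAA were in 2 (Batf3 and Siglech; 28.3%) and the longer form GAGGAAGT, which contains them, in 0 (3.2%). The E-box CANNTG was in 8 (72.3%), the NF-kB letters GGGNNNNNCC in 3 (50.8%) and TATAAA in 5 (13.6%). These are matches of letters and no measurement of binding.

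Low dose regorafenib was given in all 3 experiments, and a fit over the 11 vehicle and 9 low dose libraries asked whether dendritic cell genes shifted in common. Of the 10 genes, 0 passed an adjusted p of 0.05 in edgeR, where 1.64% of 16493 genes did. At an unadjusted p under 0.05 there were 5 of 10, all higher, beside 15.7% of all genes. These were Irf8, Ccr7, Siglech, Cd209a and Xcr1. They are not independent counts, since Ccr7, Siglech, Cd209a and Xcr1 varied together over the libraries. Siglech and Cd209a had their largest change in the DC-101 experiment, where they had passed the filter through treated libraries alone. The median log2 change of the 10 genes was 0.65 beside 0.03 over all genes. In the same fit the median was 1.15 for B cell genes (3 of 5 tested higher at an unadjusted p under 0.05), 0.66 for T cell genes (2 of 9) and 1.36 for hepatocyte genes (1 of 20), and their part in the members' values was not tested. DESeq2 called 1 of the 10, Ccr7, and limma voom 0.

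Irf8, the transcription factor that cDC1 need, is also expressed in macrophages and B cells (chromosome 8, 120736358 to 120756694). In the dose experiment it had 1018, 572, 1409 and 1466 counts under vehicle and 2129, 2064 and 1738 under low dose, so that every low dose library lay above every vehicle library. In the DC-101 experiment the counts were 775, 1423, 1648 and 1058 under vehicle and 1667, 2165 and 984 under low dose. In the anti-PD1 experiment vehicle tumours had 1800, 1339 and 1261 counts and low dose tumours 1770, 1392 and 1797. The groups overlapped in the last 2 experiments. Over the 3 experiments the log2 change of Irf8 was 0.45 (SE 0.15, edgeR adjusted p = 0.123). The summed level of 11 macrophage and monocyte genes moved with it in the dose experiment, at 1680 to 3150 CPM under vehicle and 3710 to 4300 under low dose, and its part in the Irf8 values was not tested.

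Xcr1 had 5, 16, 18 and 20 counts under vehicle and 33, 42 and 46 under low dose in the dose experiment, again without overlap. The T cell sum did not overlap there either, at 19.5 to 29.6 CPM under vehicle and 33 to 37.2 under low dose, and its part was not tested. In the DC-101 experiment Xcr1 had 5, 12, 27 and 1 counts under vehicle and 11, 48 and 17 under low dose, and in the anti-PD1 experiment 67, 1 and 6 under vehicle and 58, 18 and 52 under low dose. The vehicle libraries of the anti-PD1 experiment ran from 0.0507 to 2.76 CPM. The log2 change over the 3 experiments was 1.11 (SE 0.52, edgeR adjusted p = 0.307). Clec9a gave 0.75 (SE 0.58, adjusted p = 0.571), with a value of -0.37 in the anti-PD1 experiment that turned to 0.2 without low dose replicate 2 and to 0.29 without vehicle replicate 1.

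Ccr7, which guides mature dendritic cells and also naive T and B cells to lymph nodes (chromosome 11, 99144196 to 99155077), had the smallest adjusted p of the set in this fit. Its log2 change was 1.24 (SE 0.38, edgeR adjusted p = 0.106), made up of 0.67 in the dose, 2.01 in the DC-101 and 0.94 in the anti-PD1 experiment. In the DC-101 experiment its counts were 13, 15, 21 and 3 under vehicle and 14, 104 and 29 under low dose. Low dose replicate 2 held most of that difference, which was 1 on the log2 scale without it, and this library had the highest B cell sum of its experiment (9.14 CPM over 8 genes) and the highest T cell sum (55.5 CPM over 9 genes).

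The plasmacytoid cell lectin Siglech (chromosome 7, 55768178 to 55778925) was barely counted in the vehicle tumours of the DC-101 experiment. It had 4, 6, 3 and 3 counts there, and under low dose 9, 24 and 51, so the groups did not overlap. The log2 change there was 3.03 (SE 0.85, edgeR adjusted p = 0.153), for a gene that passed the filter through treated libraries alone, so the value is a description. It was 2.08 without low dose replicate 3. In the dose experiment it was 0.48 (SE 0.69) and in the anti-PD1 experiment 0.33 (SE 0.8), and the fit over all 3 gave 1.28 (SE 0.48, adjusted p = 0.183). The test of whether the low dose change differed between experiments gave an unadjusted p under 0.05 for 1 of the 10 genes, Siglech (edgeR adjusted p = 0.459), beside 9.61% of all genes. At an adjusted p of 0.05 it gave 0 of 10 in edgeR, DESeq2 and limma voom, where 0% of all genes passed in edgeR.

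Cd209a, a C-type lectin of cDC2 and monocyte-derived cells with close relatives among the Cd209 genes, which can share reads (chromosome 8, 3743397 to 3748984), was barely counted in the vehicle tumours of the DC-101 experiment, at 6, 5, 3 and 0 counts, and had 4, 15 and 35 counts under low dose. It too passed the filter there through treated libraries alone, and its log2 change, as a description, was 2.58 (SE 1.04), or 1.47 without low dose replicate 3. It was 1.45 (SE 0.61, edgeR adjusted p = 0.25) over the 3 experiments. The replicate with 35 counts, low dose replicate 3, was also the one with the highest Siglech count and the highest hepatocyte sum of its group, 27600 CPM.

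The other members were at joint log2 changes from -0.31 to 0.54. Batf3, the partner of Irf8 in cDC1 (chromosome 1, 191097847 to 191108945), changed by 0.02 on the log2 scale (SE 0.31) over the 3 experiments. Zbtb46, a transcription factor of conventional dendritic cells that endothelial cells also express (chromosome 2, 181387762 to 181459426), had a log2 change of -0.31 (SE 0.19, adjusted p = 0.462). In the anti-PD1 experiment alone Zbtb46 had 166, 192 and 295 counts under vehicle and 181, 71 and 124 under low dose, and after scaling the groups did not overlap (log2 change -0.87, SE 0.35, edgeR adjusted p = 0.369). The summed level of 9 endothelial genes was also lower there, at 67.4 to 151 CPM under low dose and 191 to 275 under vehicle, and its part in the Zbtb46 values was not tested. Flt3, the receptor for the growth factor that dendritic cells need (chromosome 5, 147330741 to 147400489), had a log2 change of 0.54 (SE 0.32), with 1.25 (SE 0.51, adjusted p = 0.262) in the DC-101 experiment, or 0.63 without low dose replicate 2. For Fscn1 (chromosome 5, 142960343 to 142973185) it was 0.14 (SE 0.17).

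Read within each experiment, low dose against vehicle gave no called member in edgeR. In the dose experiment 0 of 10 passed the adjusted threshold beside 0% of all genes, and 0 passed the unadjusted one beside 4.94%. In the DC-101 experiment 0 passed beside 0.0248%, with 3 at an unadjusted p under 0.05 (Siglech, Cd209a and Flt3, all higher) beside 17.1%, of which Siglech and Cd209a had passed the filter through treated libraries alone. DESeq2 called 1 there, Siglech. In the anti-PD1 experiment 0 passed beside 0%, with 1 unadjusted (Zbtb46, lower) beside 11.8%. DESeq2 called 0 in the dose and anti-PD1 experiments, and limma voom called 0 in all 3.

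**Figure D2:**
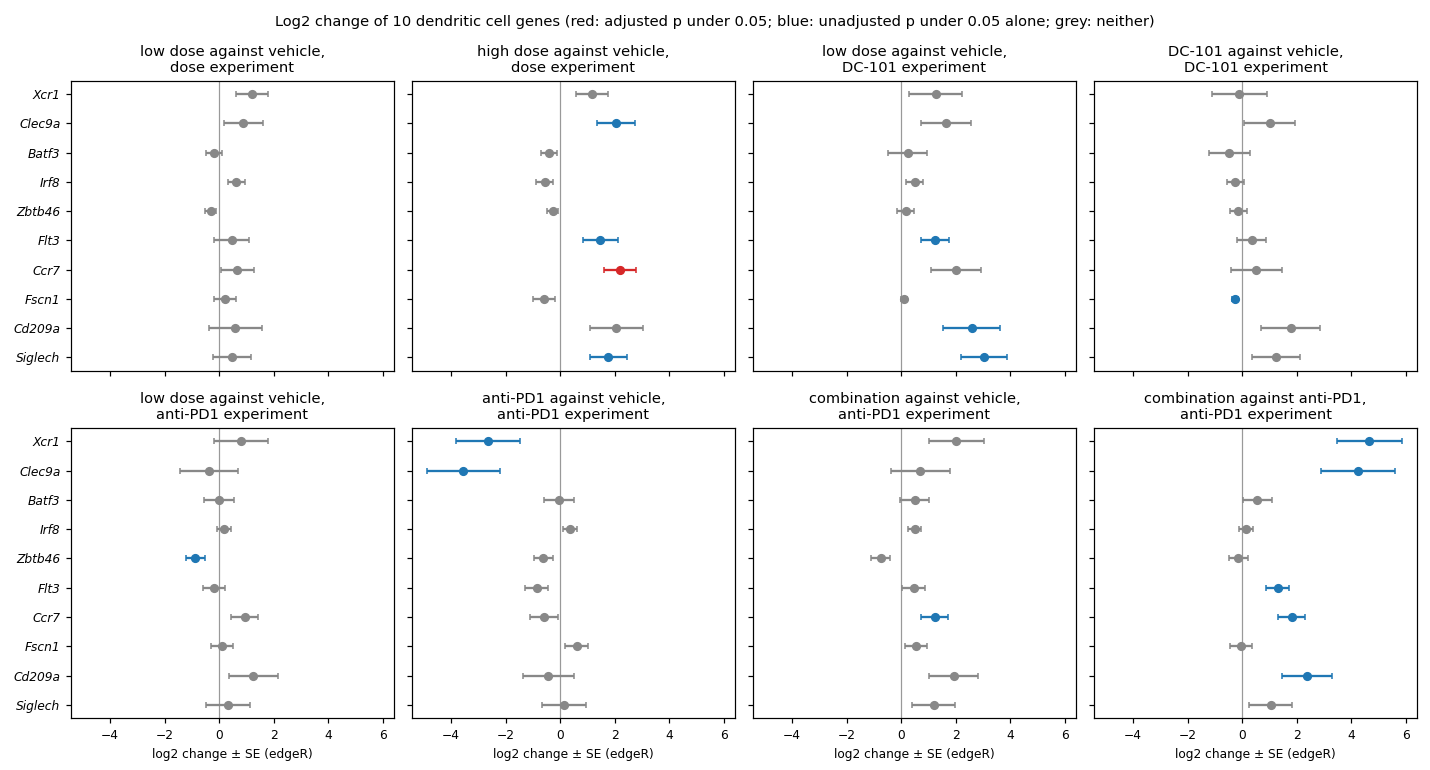
Log2 change with its SE (edgeR) on the x axis for the 10 genes on the y axis, in 8 comparisons. Red marks an adjusted p under 0.05, blue an unadjusted p under 0.05 alone and grey neither, and the 1 red point is Ccr7 under high dose (2.2).

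In edgeR, high dose regorafenib against vehicle held the only call among the 10 genes. Ccr7 rose in the high dose group, with 7, 12, 16 and 15 counts under vehicle and 39, 122 and 19 under high dose, a log2 change of 2.2 (SE 0.59, edgeR adjusted p = 0.0448). All 3 high dose libraries lay above all 4 vehicle libraries. Clec9a (6, 16, 22 and 10 counts under vehicle, 70, 80 and 12 under high dose) had a log2 change of 2.05 (SE 0.7, adjusted p = 0.0655). Siglech (8, 11, 11 and 15 against 33, 79 and 6) had one of 1.77 (SE 0.68, adjusted p = 0.0863). For Flt3 the counts were 12, 26, 22 and 27 under vehicle and 54, 114 and 20 under high dose, and the log2 change was 1.47 (SE 0.64, adjusted p = 0.119). In these 3 genes, high dose replicates 1 and 2 lay above the vehicle range, and replicate 3 lay within it for Clec9a and Flt3 and below it for Siglech. Of the 10 members, 6 had a positive and 4 a negative log2 change. Cd209a (2.06, SE 0.96) and Xcr1 (1.18, SE 0.59) were also higher. Lower were Fscn1 (-0.59, SE 0.41), Irf8 (-0.57, SE 0.32), Batf3 (-0.41, SE 0.28) and Zbtb46 (-0.27, SE 0.2), and edgeR called none of these.

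The share of members called under high dose was 1 of 10 beside 15.6% of all genes, and at an unadjusted p under 0.05 it was 4 of 10 beside 40.1%, so neither share stood above the background. DESeq2 called 3 (Ccr7, Clec9a and Siglech) and limma voom 0. The call of Ccr7 was lost on leaving out any 1 of the 7 vehicle and high dose libraries except high dose replicate 3 (adjusted p from 0.0687 to 0.108), and without that replicate 5 members were called. Without high dose replicate 1, the log2 change was 2.26 for Ccr7, 1.52 for Clec9a, 1.66 for Siglech and 1.36 for Flt3, and without replicate 2 it was 1.45 for Ccr7, 1.9 for Clec9a, 1.09 for Siglech and 1 for Flt3. When the hepatocyte score was added as a covariate, it was 1.28 for Ccr7 (adjusted p = 0.363), and with the level of Ptprc, which encodes the leucocyte antigen CD45, it was 3.21 (adjusted p = 0.128).

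Lymphocyte and liver markers moved in the same libraries. High dose replicate 2, which had the highest Ccr7, Flt3, Cd209a and Siglech levels of its experiment, had a B cell sum of 67.1 CPM over 8 genes, against 2.17 to 3.89 in the vehicle libraries, and a T cell sum of 54.2 CPM, against 19.5 to 29.6. Among the list genes tested, 2 of 5 B cell genes and 5 of 9 T cell genes were called higher and 7 of 11 macrophage and monocyte genes lower, and none of the genes on these lists was at 0 in a whole group. Without high dose replicate 2, 0 of these B and T cell genes were still called, and without replicate 1, 4 of the 7 macrophage and monocyte genes were. All 20 hepatocyte genes were higher at an unadjusted p under 0.05, with sums of 4880 to 132000 CPM under high dose and 1770 to 10700 CPM under vehicle. The part of lymphocytes in the Ccr7 and Flt3 values was not tested.

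Set against low dose, high dose gave 0 called members in edgeR beside 4.22% of all genes, 1 in DESeq2 (Irf8) and 0 in limma voom. At an unadjusted p under 0.05 there were 2 of 10 beside 29.3%. Irf8 had 446, 1338 and 481 counts under high dose and 2129, 2064 and 1738 under low dose, with every high dose library below every low dose one. The log2 change was -1.2 (SE 0.34, edgeR adjusted p = 0.0767), beside a macrophage and monocyte sum of 591 to 1410 CPM under high dose and 3710 to 4300 under low dose. Without high dose replicate 1 it was -1.08 (edgeR adjusted p = 0.126), without replicate 2 it was -1.7 (0.0122) and without replicate 3 it was -0.98 (0.0557). Ccr7 went the other way, by 1.53 (SE 0.63, edgeR adjusted p = 0.151). It was 1.59 without replicate 1, 0.76 without replicate 2 and 1.93 (edgeR adjusted p = 0.0329) without replicate 3. Against vehicle, the Irf8 values of low and high dose were log2 changes of 0.63 (SE 0.31) and -0.57 (SE 0.32, or -0.44 without high dose replicate 1 and 0.17 with Ptprc as a covariate), neither of which passed.

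DC-101 asked what blocking VEGFR2 alone does to the same genes. Against vehicle it gave 0 called members in edgeR, DESeq2 and limma voom, beside 0% of all genes in edgeR, and 1 of 10 at an unadjusted p under 0.05 beside 13.2%. That gene was Fscn1, whose level was 256 to 307 CPM in the 4 vehicle libraries and 218, 249 and 233 CPM under DC-101. Its log2 change was -0.27 (SE 0.1, edgeR adjusted p = 0.341). Over the 32 libraries Fscn1 followed the sums of fibroblast (r = 0.66), wider cDC2 (0.65) and mature dendritic cell genes (0.63). The part of cells other than dendritic cells in the Fscn1 values was not tested. The weak genes did not separate: Xcr1 had 10, 2 and 17 counts under DC-101 and a log2 change of -0.11 (SE 1.01), and Ccr7 had 7, 6 and 36 and a log2 change of 0.51 (SE 0.93). Intervals of this width leave changes of several fold in either direction undetected at this depth. DC-101 replicate 3 was the highest of its group for Xcr1, Clec9a, Batf3, Flt3, Ccr7, Cd209a and Siglech, and it also had the highest hepatocyte sum, 38500 CPM, with 22100 CPM in the next.

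Low dose regorafenib was compared with DC-101 within the same experiment. Called were 0 of 10 in edgeR, DESeq2 and limma voom, beside 0% of all genes in edgeR, and 1 was at an unadjusted p under 0.05 beside 8.45%. Fscn1 was at 309, 274 and 321 CPM under low dose, above all 3 DC-101 libraries, with a log2 change of 0.37 (SE 0.1, edgeR adjusted p = 0.476). Irf8 did not overlap either, at 76.2, 98.5 and 56.2 CPM under low dose and 55.9, 32.3 and 49.1 CPM under DC-101 (log2 change 0.75, SE 0.33, adjusted p = 0.594).

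In the anti-PD1 experiment the cDC1 receptors were scarce under anti-PD1 alone and better counted under the combination. With anti-PD1 alone Xcr1 had 5, 1 and 4 counts and Clec9a had 5, 0 and 1. Under the combination Xcr1 had 38, 96 and 174 counts and Clec9a 31, 32 and 77, and every combination library lay above every anti-PD1 library for both genes. The fitted log2 change of the combination against anti-PD1 was 4.66 for Xcr1 (SE 1.2, edgeR adjusted p = 0.472) and 4.24 for Clec9a (SE 1.35, edgeR adjusted p = 0.472). Neither gene passed the filter through an anti-PD1 library, so these values are descriptions, and with so few reads under anti-PD1 the size of both folds rests on a handful of counts.

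Values of other members are given for the same groups. Ccr7 had 15, 14 and 13 counts under anti-PD1 and 36, 74 and 66 under the combination (log2 change 1.81, SE 0.5, adjusted p = 0.472). Flt3 had 15, 11 and 23 against 34, 47 and 62 (log2 change 1.3, SE 0.42, adjusted p = 0.472), and Cd209a had 6, 6 and 13 against 50, 56 and 48 (log2 change 2.37, SE 0.92, adjusted p = 0.503). For these 3 genes too the groups did not overlap, which makes 5 of 10 members, beside 30.4% of all genes. Siglech overlapped, with 18, 5 and 14 counts against 14, 26 and 50 (log2 change 1.04, SE 0.79). Irf8, Batf3, Zbtb46 and Fscn1 had log2 changes from -0.14 to 0.55.

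Of the 10 genes, 5 were thus at an unadjusted p under 0.05 for the combination against anti-PD1, all higher, beside 8.68% of all genes. After adjustment 0 were called in edgeR beside 0% of all genes, 0 in limma voom and 1 in DESeq2 (Xcr1, adjusted p = 0.0105). The 5 genes are not independent counts, since they varied together over the libraries, and Xcr1 and Clec9a had passed the filter through no anti-PD1 library, so the count and the DESeq2 call are descriptions.

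Lymphocyte and liver markers moved with these genes. The B cell sum was 2.99 to 3.88 CPM under anti-PD1 and 5.92 to 13.7 CPM under the combination, and the T cell sum was 25.6 to 37.3 and 29.8 to 71.9 CPM. With the level of Ptprc as a covariate, the log2 change of Xcr1 was 3.12 (adjusted p = 0.643), and it ranged from 3.99 to 5.06 on leaving out 1 library at a time. The hepatocyte sum was 1150 to 3440 CPM under anti-PD1 and 5120 to 23300 CPM under the combination, with 19 of 20 genes higher at an unadjusted p under 0.05. When the hepatocyte score was added to the fit, the log2 change of Xcr1 was 5.66 (adjusted p = 0.75). The macrophage and monocyte sum overlapped, at 3700 to 5720 against 3210 to 5400 CPM.

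Counts of members whose groups did not overlap, in either direction, stood as follows in the other comparisons. Against vehicle, low dose gave 2 of 10 in the dose (13.9% of all genes), 1 in the DC-101 (16.4%) and 1 in the anti-PD1 experiment (14%). High dose gave 1 against vehicle (28.3%) and 1 against low dose (27.8%), and DC-101 gave 1 against vehicle (13.4%) and 2 against low dose (11.4%). Against vehicle, anti-PD1 gave 0 (16.6%) and the combination 2 (17.7%).

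**Figure D3:**
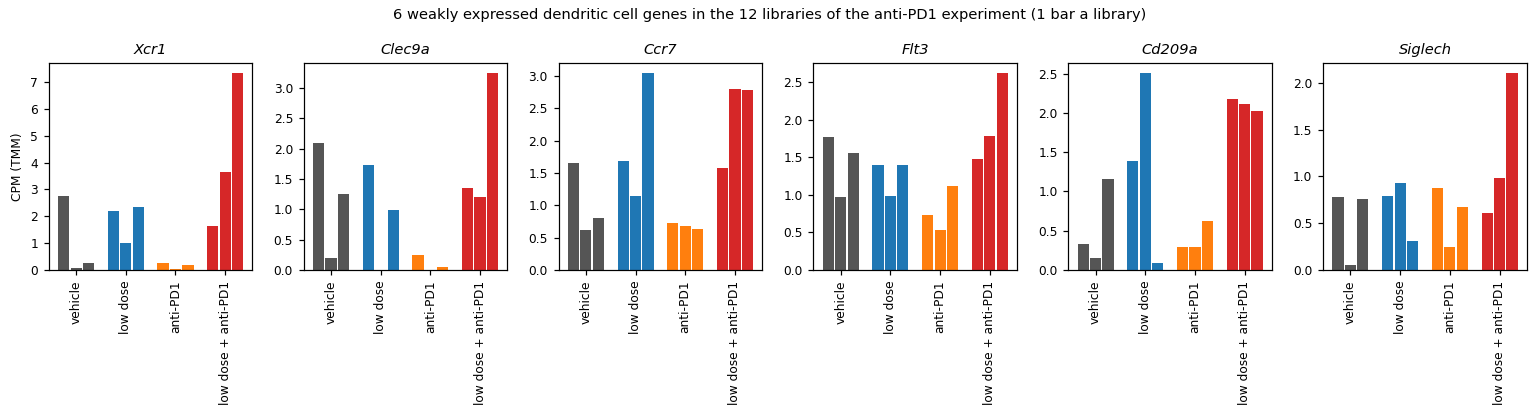
CPM (TMM-scaled) on the y axis of 6 weakly expressed genes in each of the 12 libraries of the anti-PD1 experiment, 1 bar a library, grouped by treatment on the x axis. The 3 anti-PD1 libraries are the lowest group for Xcr1 and Clec9a (at most 0.243 CPM), and the 3 combination libraries reach 7.34 CPM for Xcr1.

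Against vehicle, anti-PD1 alone gave 0 called members in edgeR, DESeq2 and limma voom, beside 0% of all genes in edgeR, and 2 of 10 at an unadjusted p under 0.05 beside 13.7%. They were Xcr1, with a log2 change of -2.64 (SE 1.17, edgeR adjusted p = 0.35), and Clec9a, with -3.55 (SE 1.34, edgeR adjusted p = 0.293). The vehicle libraries held 67, 1 and 6 counts of Xcr1 and 51, 4 and 28 of Clec9a, so both genes overlapped with anti-PD1. Vehicle replicate 1 was the highest vehicle library for both, and without it the log2 change was -0.03 for Xcr1 and -2.86 for Clec9a. Since both genes had passed the filter through no anti-PD1 library, these values and the count of 2 are descriptions. The hepatocyte sum was 11200 to 15600 CPM under vehicle, above every anti-PD1 library, and its part in these values was not tested. The combination against vehicle gave 0 called in edgeR, DESeq2 and limma voom, beside 0% in edgeR, and 1 of 10 unadjusted beside 8.2%. That gene was Ccr7, with 40, 12 and 18 counts under vehicle and a log2 change of 1.22 (SE 0.49, edgeR adjusted p = 0.564). Cd209a, at 8, 3 and 26 counts under vehicle, lay above vehicle in all 3 combination libraries once scaled (log2 change 1.93, SE 0.9, adjusted p = 0.614). Zbtb46 lay below vehicle in all 3 (log2 change -0.76, SE 0.35, adjusted p = 0.611), beside an endothelial sum of 114 to 164 CPM under the combination and 191 to 275 under vehicle, whose part was not tested.

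Some of the members varied together over the 32 libraries. Log2 CPM was centred on each experiment's mean, and 45 pairs were tested with 100000 permutations of the libraries within experiments. At a Benjamini-Hochberg adjusted p under 0.05 there were 19 pairs by Pearson's r, all positive, and 20 by Spearman's rho. Xcr1, Clec9a, Flt3, Ccr7, Cd209a and Siglech formed the largest block: all 15 of their pairs passed, with r from 0.51 to 0.8. The other 4 passing pairs were Xcr1 and Batf3 (r = 0.64, but 0.05 in the dose experiment), Batf3 and Irf8, Batf3 and Ccr7 (0.52, but -0.31 in the dose experiment) and Xcr1 and Irf8 (0.42). For the 15 pairs of the block, r was 0.51 to 0.82 without the 2 libraries farthest from the median of the first gene, and within single experiments it was 0.24 to 0.95. After centring on each group's mean, it was 0.32 to 0.8. The closest pair was Xcr1 and Ccr7 (r = 0.80, p = 1.00e-05, adjusted p = 7.50e-05; rho = 0.86, p = 1.00e-05, adjusted p = 7.50e-05, where 1.00e-05 is the smallest p these permutations can give). Its r was 0.82 without the 2 farthest libraries, 0.77 in the dose, 0.91 in the DC-101 and 0.94 in the anti-PD1 experiment.

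Inside the block, Siglech, a plasmacytoid gene, followed Cd209a (r = 0.79, p = 1.00e-05, adjusted p = 7.50e-05; rho = 0.78, p = 1.00e-05, adjusted p = 7.50e-05; 0.72 without the 2 farthest libraries and 0.69 to 0.9 within experiments). Xcr1 followed Clec9a, the other cDC1 receptor (r = 0.75, p = 2.00e-05, adjusted p = 1.12e-04; rho = 0.77, p = 1.00e-05, adjusted p = 7.50e-05; 0.68 without the 2 farthest libraries and 0.73 to 0.8 within experiments). The 4 pairs between Xcr1 or Clec9a and Cd209a or Siglech were lower, at 0.51 to 0.61, a difference that was not tested. Batf3 and Irf8, the transcription factors of cDC1, followed each other (r = 0.55, p = 3.10e-04, adjusted p = 9.30e-04; rho = 0.56, p = 8.20e-04, adjusted p = 0.00246; 0.51 without the 2 farthest libraries and 0.46 to 0.73 within experiments). By Pearson's r, Fscn1 passed with none of the other 9 members (r from -0.26 to 0.35), nor did Zbtb46 (r from -0.02 to 0.36), while by Spearman's rho Zbtb46 passed with Batf3 (rho = 0.48, adjusted p = 0.0316).

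**Figure D4:**
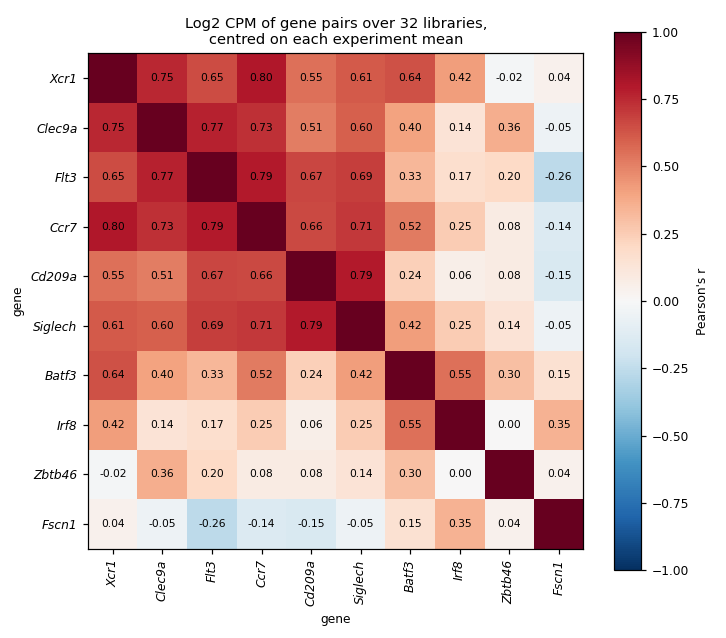
Pearson's r between the log2 CPM of each pair of genes over 32 libraries, centred on each experiment's mean, with the same 10 genes on both axes. The 6 genes at the upper left share r of 0.51 to 0.8, and the rows of Fscn1 and Zbtb46 hold values from -0.26 to 0.36.

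The genes most like each member, out of 15410 tested in all 3 experiments and given with no test, differed in kind. Xcr1 was closest to Gcsam (r = 0.91), Gimap7 (0.88) and Tlr11 (0.88), of which Gcsam is on the wider cDC1 list. Ccr7 was closest to Cd4 (0.91), Btla (0.89) and Ltb (0.89), genes of lymphocytes, and Flt3 to Ly9 (0.85), Il27ra (0.83) and Cd4 (0.83). Clec9a was closest to Itpr2 (0.85), Sept3 (0.84) and Serpina3g (0.84). Batf3 was closest to BC147527 (0.84) and to H2-DMb2 (0.76) and H2-DMb1 (0.75), which load peptides on MHC class II. Irf8 was closest to Sash3 (0.9), Lmo2 (0.88) and Efhd2 (0.88). Cd209a was closest to the liver enzymes Cyp2a22, Mogat1 and Elovl3 (0.8 each), and Siglech to H2-Oa (0.81), Icam1 (0.77) and Btla (0.76). Fscn1 was closest to Ckap4 (0.93), Ttll12 (0.92) and Syde1 (0.92), and Zbtb46 to 1700012B09Rik (0.81), Dnm3 (0.76) and Radil (0.75). As points share libraries, depth and tumour composition, these values describe these tumours alone.

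Summed marker levels followed the members unevenly. With the B cell sum, r was 0.78 for Ccr7, 0.64 for Flt3 and 0.59 for Xcr1. With the summed level of the 4 ligand genes (Flt3l, Xcl1, Ccl19 and Ccl21a) it was 0.79 for Ccr7, 0.78 for Xcr1 and 0.72 for Clec9a. That sum came mainly from Flt3l and Xcl1, so the value for Ccr7 is not one with its own ligands, and none was listed for Clec9a. With the hepatocyte sum it was 0.55 for Cd209a, 0.51 for Clec9a, 0.49 for Flt3 and -0.29 for Fscn1. Irf8 followed the wider mature dendritic cell list (0.82), the macrophage and monocyte sum (0.74) and Ptprc (0.77). Xcr1 was at 0.24, 0.02 and 0.52 with these. Fscn1 followed the fibroblast sum (0.66). With the wider cDC1 list, r was 0.7 for Xcr1, 0.62 for Clec9a, 0.56 for Batf3 (0.66 with the plasmacytoid list) and 0.52 for Irf8. With the wider lists of their own cell types, it was 0.35 for Siglech (plasmacytoid) and -0.19 for Cd209a (cDC2). With the mature dendritic cell list it was -0.01 for Ccr7 and 0.63 for Fscn1. Zbtb46 was at -0.03 with the cDC1 and 0.21 with the cDC2 list. These are descriptions over 32 libraries that share depth and composition.

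The growth factor and chemokines that act on the members were measured too. Flt3l, the ligand of Flt3, rose under high dose, from 50, 32, 44 and 37 counts under vehicle to 106, 231 and 83 (log2 change 1.76, SE 0.35, edgeR adjusted p = 0.031). Without high dose replicate 1 it was 1.74 (adjusted p = 0.0401), and without replicate 2 it was 1.41 (adjusted p = 0.0656). Of the 4 ligand genes, 2 passed the filter in the dose, DC-101 and joint fits and 3 in the anti-PD1 experiment, and edgeR called no other of those tested. Xcl1, the ligand of Xcr1 made by T and NK cells, had 14, 7, 52 and 9 counts under vehicle and 54, 119 and 95 under low dose in the dose experiment, and 42, 20 and 16 under anti-PD1 and 53, 168 and 107 under the combination. After scaling, the first pair of groups overlapped (1.91 CPM in the highest vehicle and 1.89 in the lowest low dose library), the second did not, and neither comparison was called. The Ccr7 ligands Ccl19 and Ccl21a had few or no counts in most libraries. Their highest counts were 29 for Ccl19 in high dose replicate 2 and 45 for Ccl21a in anti-PD1 replicate 1.

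Wider lists of dendritic cell genes held few calls outside the high dose. Over the 3 experiments, 3 of 18 tested genes of mature dendritic cells were called higher under low dose, beside 1.64% of all genes called. They were Marcksl1 (log2 change 0.54, SE 0.13), Il4i1 (1, SE 0.25) and Traf1 (0.58, SE 0.15), with edgeR adjusted p of 0.045, 0.0463 and 0.0489. These calls were not refitted with another tool or with a library left out. At an unadjusted p under 0.05, 7 genes of this list were higher and 2 lower, beside 15.7% of all genes. In the same fit 1 of 11 macrophage and monocyte genes was called higher (Fcgr1, 0.73) and 7 of 9 endothelial genes lower, and their part in these values was not tested. The median of that list was 0.14, and that of the wider cDC1, cDC2 and plasmacytoid lists was 0.37, 0.34 and 0.4, with 0 called among 9, 8 and 10 tested genes, beside a median of 0.03 over all genes. None of the lists held a call in any comparison within the DC-101 or anti-PD1 experiment, where at an unadjusted p under 0.05 they held up to 4 genes each in 1 direction, beside 8.2% to 17.1% of all genes in both directions.

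Under high dose, 2 of 9 tested genes of the wider cDC1 list, 2 of 8 of the cDC2 list, 4 of 17 of the mature dendritic cell list and 0 of 11 of the plasmacytoid list were called, beside 15.6% of all genes. Of the wider cDC1 list, Itgae rose by 0.95 (SE 0.28, edgeR adjusted p = 0.0491), while Itgax, which macrophages also carry, fell by 1.63 (SE 0.27, adjusted p = 0.0216). Of the cDC2 list, Cd7 rose (2.43, SE 0.68, adjusted p = 0.0467) and the myeloid integrin Itgam fell by 2.8 (SE 0.36, adjusted p = 0.0143). Among genes of mature dendritic cells, the chemokine Ccl22 (2.55, SE 0.66, adjusted p = 0.0428) and Il15ra (2.21, SE 0.52, adjusted p = 0.0368) rose. Marcksl1 (-1.18, SE 0.23, adjusted p = 0.0303) and the costimulatory gene Cd86 (-1.27, SE 0.29, adjusted p = 0.0355) fell. In the same comparison 5 of 9 T cell genes were called higher and 7 of 11 macrophage and monocyte genes lower. The part of these cells in the genes that rose and in those that fell was not tested. Left out in turn, as an alternative chosen after seeing the data, high dose replicate 1 took away the calls of Cd7 (2.61), Cd86 (-1.14), Il15ra (1.32) and Ccl22 (2.42), and replicate 2 those of Itgae (0.69), Cd7 (1.75), Il15ra (2.36) and Ccl22 (1.97), with adjusted p from 0.0587 to 0.126. Against low dose, where 4.22% of all genes were called, the genes called were Itgam (-3.38, SE 0.38), Marcksl1 (-1.92, SE 0.25), Cd86 (-1.79, SE 0.3) and the plasmacytoid list's Tlr7 (-1.56, SE 0.33), all lower, with edgeR adjusted p from 0.00543 to 0.0379, and all 4 were called without any 1 of the high dose replicates. Of the macrophage and monocyte genes, 7 of 11 were called lower in the same comparison.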

How the data were processed

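RNA from liver tumours, frozen per the labels and fresh per the study's methods, was sequenced after a stranded mRNA library preparation, in 32 libraries of 10 groups. Per the study's methods, the authors trimmed reads with cutadapt (2.4) and aligned them with STAR (2.7.2a) to GRCm38 with Gencode annotation. The deposited files hold raw gene counts from STAR, not normalized, in a table for each of the 3 experiments. The strand setting of the counts is not given in the sources used here. All 32 count columns were used, and 54409 of 54446 gene identifiers (99.93%) were matched to symbols through a Gencode annotation of the same build.

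Counts were filtered (at least 10 in enough libraries for the design, and 15 in total), scaled with TMM factors within each experiment and tested with edgeR (4.0.16, R 4.3.3), using the robust quasi-likelihood F-test, 2-sided, over all groups of an experiment. This left 16525 genes in the dose, 16138 in the DC-101, 16615 in the anti-PD1 and 16493 in the joint fit of low dose, which had experiment as a covariate. P-values were adjusted by Benjamini-Hochberg over all genes tested, with a threshold of 0.05. Log2 CPM used a prior count of 2, the SE is the log2 change divided by the square root of F, and levels between genes were divided by the union of exon lengths. Alternatives were DESeq2 (1.42.0), limma voom (3.58.1), other scaling, no filter, covariates, a replicate block, fits on only the groups compared and leaving out each replicate. The test was tried on simulated data first. Depth was 16.8 M to 27.7 M counts, and intervals and tests at few counts are wide.

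Genes to name were the 10 members, up to 4 genes of each wider dendritic cell list and of the ligands that passed the adjusted threshold in a comparison, by smallest p, and the 3 genes with the largest Pearson's r with each member. Xcl1, Ccl19 and Ccl21a lie outside this rule and were added after their values were seen. The members and the marker lists were chosen with earlier results of these data known. The dose of anti-PD1 is not in the labels and is not given here.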

Additional observations from a re-analysis of the deposited data

Results flagged for a closer look

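In the groups of 4 libraries, the highest or lowest library was compared with the others by its gap relative to the range of the group. Over 20 combinations of gene and vehicle group, 1 stood apart, where about 1 in 20 would by chance. It was Zbtb46 in vehicle replicate 2 of the dose experiment, at a log2 CPM of 3.36. The raw counts of the 4 libraries were 177, 178, 206 and 193, and replicate 2 had the lowest total count of them, 16.8 M. The gap was 0.849 of the range. Zbtb46 was called in no comparison.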

How the results depend on the processing

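The number of members called for high dose against vehicle was 1, and it became 0 under total count scaling, limma voom, no filter, the replicate block, either covariate or a fit of only the groups compared, and 3 under DESeq2. Leaving out 1 replicate gave 0 to 5. For high dose against low dose, leaving out 1 replicate gave 0 to 2. DESeq2 called 1 in high dose against low dose, low dose against vehicle in the DC-101 experiment, the combination against anti-PD1 and low dose over 3 experiments, in place of 0. Over 1843 recomputed changes, 79 reversed, 13 passed the threshold only under the alternative, 13 lost it and 1738 did neither. The test of a difference between experiments has no single log2 change, so only its count was recomputed. Same-numbered replicates deviated together (correlation over 0.1) in 2 of 9 same-number pairs (dose), 4 of 9 (DC-101) and 6 of 18 (anti-PD1), and they share only a number. With the replicate block, Ccr7 under high dose was 2.2 (adjusted p = 0.198) and under DC-101 -0.09. Weakly counted genes are limited by depth.

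Some log2 changes reversed. With Ptprc as covariate these were Batf3 0.11 and Irf8 0.17 (high dose against vehicle), Xcr1 1.65 and Batf3 0.43 (high against low dose), Batf3 -0.09 (low dose, DC-101 experiment), Batf3 -0.51, Irf8 -0.03 and Siglech -0.29 (low dose, anti-PD1 experiment), Batf3 0.27 (anti-PD1), Batf3 -0.14 (combination against vehicle), Batf3 -0.41, Irf8 -0.16, Fscn1 0.19 and Siglech -0.12 (combination against anti-PD1) and Batf3 -0.41 (low dose, 3 experiments). With the hepatocyte score these were Zbtb46 -0.02 (high against low dose), Batf3 -0.49 and Zbtb46 -0.10 (low dose, DC-101 experiment), Ccr7 -0.25 (DC-101), Xcr1 -0.32, Batf3 -0.66 and Irf8 -0.21 (low dose, anti-PD1 experiment), Irf8 -0.16, Cd209a 1.41 and Siglech -0.23 (anti-PD1), Zbtb46 0.14 and Fscn1 0.06 (combination against anti-PD1) and Batf3 -0.12 (low dose, 3 experiments). Total count scaling gave Zbtb46 -0.09 (high against low dose), Batf3 -0.01 (low dose, anti-PD1 experiment) and Fscn1 0.01 (combination against anti-PD1). Without the filter Zbtb46 was -0.01 (high against low dose), with limma voom Xcr1 was 0.13 (DC-101) and Batf3 0.13 (anti-PD1), and without the DC-101 experiment Batf3 was -0.10 (low dose, 3 experiments). The cause was not tested.

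On leaving out 1 replicate, the ranges that crossed 0 were as follows. High against low dose gave Xcr1 -0.90 to 0.32, Batf3 -0.43 to 0.03 and Zbtb46 -0.07 to 0.13. Low dose in the DC-101 experiment gave Batf3 -0.07 to 0.68 and Zbtb46 -0.15 to 0.42. DC-101 against vehicle gave Xcr1 -0.93 to 0.91, Irf8 -0.42 to 0.00, Zbtb46 -0.26 to 0.04, Ccr7 -1.0 to 0.98 and Siglech -0.39 to 1.72. Low dose against DC-101 gave Zbtb46 -0.01 to 0.54 and Cd209a -0.30 to 2.24. Low dose in the anti-PD1 experiment gave Clec9a -1.22 to 0.29, Batf3 -0.28 to 0.76, Fscn1 -0.17 to 0.56 and Siglech -0.19 to 0.69. Anti-PD1 against vehicle gave Batf3 -0.34 to 0.70, Cd209a -0.90 to 0.71 and Siglech -0.36 to 0.53. The combination against anti-PD1 gave Irf8 -0.13 to 0.33, Zbtb46 -0.35 to 0.01 and Fscn1 -0.22 to 0.07, and low dose over 3 experiments gave Batf3 -0.08 to 0.20.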
